A study of Mus musculus with 5 samples.

Results

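The cells described here are a small set of epithelial cells of mouse PyMT mammary tumours with high summed expression of Wif1, Smr2, Arg1, Meis1 and Chad. An epithelial cell was a cell with at least 15 UMIs of Krt8, Krt18 and Epcam together per 10000 UMIs, a UMI being 1 counted RNA molecule. Each epithelial cell was given the mean of log1p(UMIs per 10000) over the 5 genes, and the members were the cells above the 95th percentile of the epithelial cells of their own library. There were 550 members among 10959 epithelial cells and 15958 cells in all. The levels of the 5 genes therefore chose the members and are given below as a description, without a test. Besides these 5 genes, Krt8, Krt18 and Epcam entered the choice through the epithelial gate, which the comparison cells passed too.

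PyMT mice carry the polyoma middle T oncogene, which drives mammary tumours. The sources used here state neither the promoter of the transgene nor the strain or age of the mice. The 5 libraries were fresh 10x 1 and fresh 10x 2 (10x Genomics 3' v2, tumour digests processed fresh), stored 10x (same chemistry, digest kept overnight in the cold, 24 h by its title), and BD 1 and BD 2 (BD Rhapsody). BD 1 is labelled fresh. The labels of BD 2 conflict on storage, so it was used by platform and not by storage. The sources do not say whether the libraries come from separate tumours or animals, so p-values measure the spread between these libraries, which may be technical. The libraries held 29166129 to 59957945 UMIs. The members numbered 70 and 72 in the fresh 10x libraries 1 and 2, 149 in stored 10x, and 127 and 132 in the BD libraries 1 and 2. Between libraries 0 to 24 barcode sequences were shared, and no full barcode was.

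The luminal epithelium of the mammary gland makes milk. Its alveolar cells secrete caseins and lactalbumin under the control of prolactin, and hormone-sensing and progenitor cells form the rest of the luminal layer above the basal cells. Salivary and lacrimal glands are related secretory glands with another set of secreted proteins, among them secretoglobins, the prolactin-inducible protein Pip and submaxillary gland proteins such as Smr2. Wif1 is a secreted protein that binds Wnt ligands and inhibits them. Arg1 is arginase 1, which splits arginine into ornithine and urea and is often used as a macrophage gene. Meis1 is a homeodomain transcription factor that binds DNA with Pbx and Hox proteins. Chad (chondroadherin) is a leucine-rich protein of cartilage matrix.

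Promoters of 4 genes are shown as examples of the secretory groups described below: Pip and the neighbouring Scgb1b27 and Scgb2b27 among the genes higher in members, and Csn2 among the milk genes lower in them. They are the 250 bases before the RefSeq start site on GRCm38.p6, 5′ to 3′ on the strand of the gene. Capitals mark TGACAG, a sequence bound by Meis proteins, on either strand, or TTCNNNGAA, the core letters bound by STAT factors, which reads the same on both strands. Pip lies at chr6:41847299-41847548 on the plus strand, Scgb1b27 at chr7:34021231-34021480 on the plus strand, Scgb2b27 at chr7:34013943-34014192 on the minus strand and Csn2 at chr5:87699426-87699675 on the minus strand.
Pip: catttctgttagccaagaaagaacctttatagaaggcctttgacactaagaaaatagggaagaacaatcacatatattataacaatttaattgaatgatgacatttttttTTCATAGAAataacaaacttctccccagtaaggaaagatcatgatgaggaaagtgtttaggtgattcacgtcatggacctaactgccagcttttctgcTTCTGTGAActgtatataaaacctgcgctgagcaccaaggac
Scgb1b27: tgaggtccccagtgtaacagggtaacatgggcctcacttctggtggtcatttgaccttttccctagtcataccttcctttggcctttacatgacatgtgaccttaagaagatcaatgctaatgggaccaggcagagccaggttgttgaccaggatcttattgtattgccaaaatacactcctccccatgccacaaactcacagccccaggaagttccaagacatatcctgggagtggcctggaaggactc
Scgb2b27: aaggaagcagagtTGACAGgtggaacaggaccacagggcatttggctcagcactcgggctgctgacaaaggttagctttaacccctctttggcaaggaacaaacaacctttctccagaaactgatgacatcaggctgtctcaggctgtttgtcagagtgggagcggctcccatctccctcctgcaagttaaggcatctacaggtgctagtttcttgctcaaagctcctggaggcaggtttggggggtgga
Csn2: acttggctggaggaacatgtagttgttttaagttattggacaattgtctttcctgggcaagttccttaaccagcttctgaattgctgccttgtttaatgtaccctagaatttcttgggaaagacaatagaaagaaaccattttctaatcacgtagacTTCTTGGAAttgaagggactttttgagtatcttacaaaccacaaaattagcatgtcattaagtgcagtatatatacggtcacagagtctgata
The Pip window held 2 matches of TTCNNNGAA, the Csn2 window held 1, and neither held TGACAG. The Scgb2b27 window held 1 match of TGACAG. No match was in the Scgb1b27 window. Of 32851 mouse windows of this length, 15.9% held TGACAG and 7.02% held TTCNNNGAA. Among the 16 genes with the highest fold change in members, 14 had a window, of which 5 held TGACAG and 1 held TTCNNNGAA. Among the 10 with the lowest, 8 had a window, of which 1 held TGACAG and 4 held TTCNNNGAA. A match is a description of letters and not a bound site.

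Among the rule genes, Arg1 was the most often detected. Its UMIs were found in 84.6 to 93.7% of the members of a library and in 21.2 to 28.2% of the other epithelial cells. Meis1 was found in 58.3 to 62.9% of the members, Wif1 in 31.9 to 63.6%, Chad in 23.6 to 75.0% and Smr2 in 11.8 to 51.4%. Most members carried several of the genes: 328 of 550 (59.6%) had UMIs of 3 or more, 148 of 2, 74 of a single one, and 15 of all 5. Members with a single gene had median totals of 3447 to 12383 UMIs, and those with 3 or more had 13820 to 23314. The single-gene members were shallower than the other epithelial cells in 4 of 5 libraries, the exception being BD 2 (12383 against 10701). The score threshold was 0.382 (fresh 10x 1), 0.431 (fresh 10x 2), 0.451 (stored 10x), 0.537 (BD 1) and 0.578 (BD 2). The scores ran on across it: in fresh 10x 1 the lowest member had 0.383 and the highest cell outside 0.382, and in BD 2 these were 0.580 and 0.577. The median score of the other epithelial cells was 0 in every library.

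Summed over cells, Arg1 reached 6.18 (fresh 10x 1), 9.40 (fresh 10x 2), 4.49 (stored 10x), 7.98 (BD 1) and 8.36 (BD 2) UMIs per 10000 in the members. The other epithelial cells held 0.277 to 0.606, so the ranges were far apart. Wif1 was at 0.834, 0.530, 1.47, 0.945 and 2.05 UMIs per 10000 in the members of the same libraries, highest in BD 2 and lowest in fresh 10x 2. Meis1 was even across libraries, between 0.791 and 0.858. Chad was at 0.229 and 0.243 in the fresh 10x libraries, 0.687 in stored 10x, and 1.52 and 1.75 in the BD libraries 1 and 2. The other epithelial cells showed the same order of Chad, from 0.0265 in fresh 10x 1 to 0.104 in BD 2. Smr2 was uneven: 10.7 in fresh 10x 2 against 0.297 in BD 1, and 1 cell held 15.5 to 48.1% of the members' Smr2 UMIs of a library. In T cells, which should lack these genes, UMIs were found in 1 of 339 cells for Wif1, 0 for Smr2, 4 for Arg1, 2 for Meis1 and 11 for Chad, at median depths of 2533 to 5176 UMIs against 12637 to 17903 for the members. In cells gated as macrophages Arg1 was found in 0 to 3.68%.

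**Figure D1:**
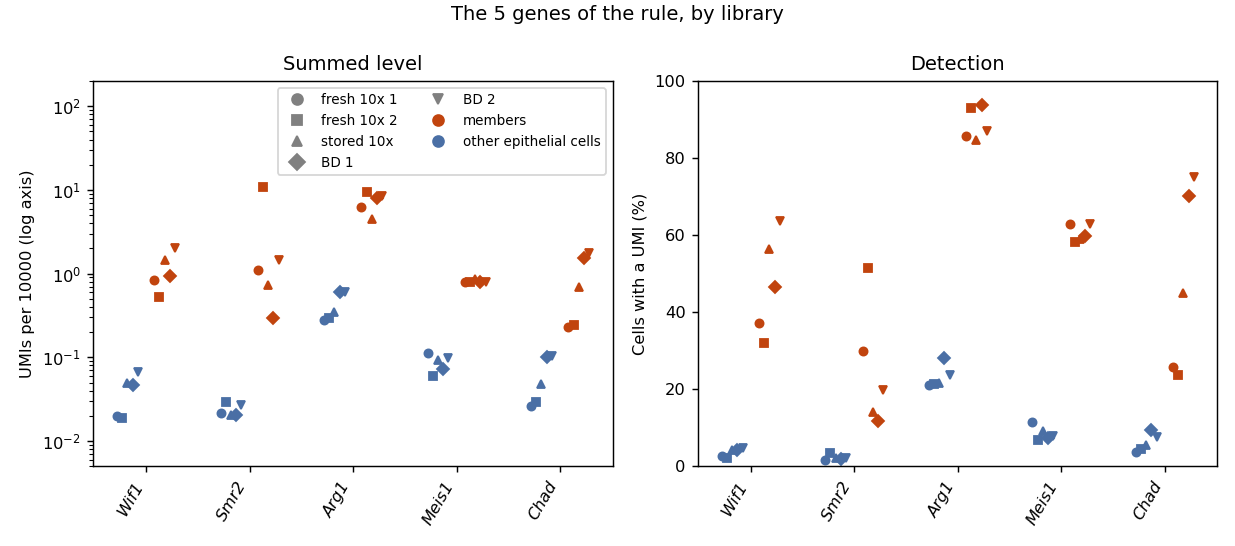
Levels of the 5 rule genes summed over members (red) and other epithelial cells (blue), as UMIs per 10000 on a log axis (left), and the percent of cells with a UMI (right), 1 symbol per library. Arg1 was found in 84.6 to 93.7% of members and Meis1 was the most even across libraries. Smr2 ranged from 0.297 to 10.7 UMIs per 10000.

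Each gene was left out of the score in turn and read in members chosen on the rest. The 5 genes had been put together with results of these data known, so these values are not independent evidence that they go together. Each left-out gene was higher in members chosen on the other 4 genes, in 5 of 5 libraries. Smr2 had a log2 fold change of 3.75 (SE 0.424, adjusted p = 5.24e-05, edgeR quasi-likelihood), which was 3.16 without fresh 10x 2. Wif1 had 3.52 (SE 0.177, adjusted p = 3.31e-08), Arg1 2.63 (SE 0.167, adjusted p = 2.27e-06), Chad 2.60 (SE 0.145, adjusted p = 3.52e-07) and Meis1 2.57 (SE 0.110, adjusted p = 1.61e-08). For comparison, the share of all genes tested that were called higher was 9.63% in the fit without Wif1, 9.0% without Smr2, 5.99% without Arg1, 8.5% without Meis1 and 9.12% without Chad. Arg1, for example, was at 3.98, 5.53, 2.14, 4.31 and 4.86 UMIs per 10000 in members chosen without it, against 0.482 to 0.875 in the others.

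To compare joint detection at equal depth, every epithelial cell was thinned to 2000 UMIs, and shallower cells were left out. At that depth, 41 of the 167 cells with Wif1 also had Arg1 (24.6%), against 7.11 to 9.88% of the cells without Wif1. Of 103 cells with Smr2, 36 had Arg1 (35.0%). In every pair with Arg1, each gene was found more often in cells with the other than without it, in 5 of 5 libraries. The same held for Wif1 with Meis1 and Smr2 with Meis1. For Wif1 with Chad, and for Smr2 with Chad, it held in 3 of 5. These are descriptions from few cells.

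The members also lay near each other in genes that the rule did not use. In 20 principal components of 2000 variable genes without the rule genes, the share of members among the 15 nearest neighbours of a member was 26.2% (fresh 10x 1), 26.1% (fresh 10x 2), 28.3% (stored 10x), 29.1% (BD 1) and 37.1% (BD 2). The members made up about 5% of the epithelial cells, and 2.63 to 3.12% of the neighbours of other cells were members. The set is not a closed cluster, since 76 of the 550 members had no member among their neighbours.

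Every member passed the gate on Krt8, Krt18 and Epcam. Of the 6 other epithelial markers, all tested, 4 were lower (Krt19, Elf3, Cldn4 and Cldn7) and 0 higher by edgeR (0 at an unadjusted p under 0.05, 0 by DESeq2), where 11.5% of all genes tested were lower and 9.46% higher. Krt19, a luminal keratin, was at 0.465, 0.908, 0.749, 0.755 and 0.237 UMIs per 10000 in the members of fresh 10x 1, fresh 10x 2, stored 10x, BD 1 and BD 2, against 2.62 to 3.60 in the others. The groups did not overlap and the log2 fold change was -2.50 (SE 0.16, adjusted p = 6.43e-07). Cdh1 (-0.15) and Cldn3 (-0.03) did not pass. The gate genes were at -0.47 (Krt8), -0.36 (Krt18) and -0.11 (Epcam). The 14 macrophage markers summed to 0.185 to 1.30 UMIs per 10000 in members and 0.346 to 1.58 in the others, lower in 5 of 5 libraries, and 7 of the 10 tested were lower. Without cells holding 5 or more UMIs of other classes 0 of 5 were lower, with a median log2 fold change of 0.09, and with scores on cells thinned to 2000 UMIs Lyz2 was at 1.03 and Cd74 at 0.77. T and NK markers summed to at most 0.0377 in members, with Cd2 and Ncr1 at 0. Fibroblast markers summed to 1.16 to 1.77 in members and 0.663 to 3.86 in the others. They were higher in the members of both fresh 10x libraries (1.47 against 1.10 and 1.77 against 0.663) and lower in those of the other 3. Mural markers summed to 0.146 to 1.20 against 0.228 to 0.499 and were higher in the members of 1 library.

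Members were a little deeper than other epithelial cells. The ratio of median UMIs was 0.979 to 1.45, higher in 4 of 5 libraries (exact sign-flip permutation test, two-sided p = 0.125, where 0.063 is the smallest p that 5 libraries allow). At equal depth, the number of genes per cell was higher in 5 of 5 libraries, by 1.00 to 1.06 times (exact permutation p = 0.063). The share of ribosomal protein UMIs was also higher in 5 of 5, by 1.02 to 1.17 times (exact permutation p = 0.063), and mitochondrial shares were higher in 4 of 5 (exact permutation p = 0.8125). The doublet score of scrublet was lower in members in 5 of 5 libraries (exact permutation p = 0.063). The part of these measures in the results below was not tested beyond the alternatives given with them.

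Across 12597 genes tested, 1192 (9.46%) were higher in members than in other epithelial cells and 1449 (11.5%) were lower, 21.0% in either direction. Without stored 10x, 779 genes were higher. Of the called genes, 1042 higher and 1230 lower had the same sign in 5 of 5 libraries, and 282 and 445 differed by at least 2-fold. Against comparison cells of matched total UMIs, 748 genes were higher and 748 lower. The 16 genes with the highest and the 10 with the lowest log2 fold change among called genes with the same sign in every library and at least 20 UMIs in each library (in members for higher genes, in the others for lower ones) are described next, in groups. In the cells of the pooled fresh 10x matrix that neither sample matrix holds (1733 epithelial cells, 87 members), all 16 of the first set were higher in members. There 8 of the 10 of the second were lower, the exceptions being Ang5 and Zfp366. By their barcode prefixes these cells come from the same fresh 10x samples, so they are not an independent sample.

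Secreted proteins of salivary and lacrimal glands led the genes that were higher. Of 24 listed genes 23 were in the files and 15 were tested. By edgeR 11 were higher (8 by DESeq2) and 2 (Ltf, -2.51, or -3.16 without fresh 10x 1, and Lyz2, -2.09) lower. Over all genes tested, 9.46% were higher and 11.5% lower by edgeR. Of the 11, Smr3a and Dcpp3 were higher in 3 of 5 libraries only and Scgb2b26 in 4. The list had a median log2 fold change of 2.69 against -0.01 over all genes tested. Pip was at 3.55, 8.08, 3.26, 4.88 and 7.92 UMIs per 10000 in members and at 0.0264 to 0.113 in the others. Its groups were far apart, with a log2 fold change of 6.46 (SE 0.27, adjusted p = 1.88e-08). Mup4, a major urinary protein of the lipocalin family, was at 0.127, 4.06, 1.30, 0.0952 and 1.61 in members, a 42.7-fold spread between libraries, and at 0.00474 to 0.0280 in the others (log2 fold change 6.65, SE 0.38, adjusted p = 2.32e-07). The lowest library of members (BD 1) was above the highest of the others, but 1 cell held 92.3% of its 26 UMIs. In each library 1 cell held 49.3% (fresh 10x 2) to 97.7% (stored 10x) of the members' Mup4 UMIs, so the separation rests on few cells.

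Secretoglobins, small secreted proteins of glandular epithelium, rose at several loci. Scgb1b27 was at 2.95, 7.0, 21.9, 16.8 and 3.04 UMIs per 10000 in members, against 0.298 to 1.29 in the others (log2 fold change 3.56, SE 0.32, adjusted p = 8.30e-06). Scgb2b27 was at 34.4, 34.0, 21.3, 27.4 and 22.8, against 4.35 to 9.58 (2.10, SE 0.09, adjusted p = 3.40e-08). The start sites of these 2 genes lie 7539 bases apart on chromosome 7 and point away from each other. Scgb1c1 was higher by 2.69 (SE 0.45, adjusted p = 9.57e-04), or 2.02 without fresh 10x 1. Its members' level was 2.04 and 1.10 in the fresh 10x libraries and 0.165 to 0.352 in the other 3. In fresh 10x 1 and 2, 1 cell held 35.9 and 57.4% of the members' Scgb1c1 UMIs. Secretoglobin, Dcpp, Mup and casein genes have near-identical copies, so the split of reads between copies is uncertain.

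The remaining secreted genes of this group were Car6, the secreted carbonic anhydrase of saliva, Prol1, a proline-rich lacrimal protein, and Dcpp1, a demilune protein of the sublingual gland. Car6 was at 24.6, 23.0, 12.9, 11.5 and 12.7 UMIs per 10000 in members and 1.26 to 4.25 in the others (2.96, SE 0.14, adjusted p = 3.40e-08). Car6 was found in 66.7% of all members. Prol1 had a log2 fold change of 2.78 (SE 0.36, adjusted p = 1.25e-04), although fresh 10x 2 in the others (0.718) reached the lowest member level (0.718 in BD 1). Dcpp1 rested on fresh 10x 1, with 7.13 UMIs per 10000 there and 0.441 to 1.27 elsewhere. Its value was 2.08 (SE 0.59, adjusted p = 0.023), or 1.22 without fresh 10x 1, and it missed the threshold with DESeq2 (adjusted p = 0.066). The uncharacterised gene 2310057J18Rik was at 7.55, 24.0, 23.0, 9.58 and 6.42 in members and 1.06 to 7.24 in the others, with overlap (2.36, SE 0.42, adjusted p = 1.54e-03).

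The UMIs of Mup4, Pip, Scgb1b27 and Dcpp1 were held by few members, while Car6 was found in 367 members, 10 of which held 33.2% of its UMIs. UMIs of Mup4 were found in 34 of 550 members (6.18%), and 10 cells held 94.4% of them. Pip was found in 73 members (13.3%), 10 of which held 86.4% of its UMIs, and Scgb1b27 in 82 (14.9%), 10 of which held 91.2%. Detection, which counts each cell once, still differed: Pip was found in 5.37 to 25.7% of members and 0.799 to 3.04% of the others, and Mup4 in 2.36 to 22.2% against 0.280 to 0.442%, both in 5 of 5 libraries. Scgb2b27 was found in 54.5 to 75.7% of members but also in 48.4 to 60.2% of the others. For 2310057J18Rik, members were ahead in 4 of 5 libraries only. Dcpp1 was found in 34 members (6.18%), 10 of which held 88.5% of its UMIs. Its detection was 20.0% of members and 1.89% of the others in fresh 10x 1. Elsewhere it was 3.03 to 5.37% of members and 2.96 to 4.39% of the others, so these were close.

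**Figure D2:**
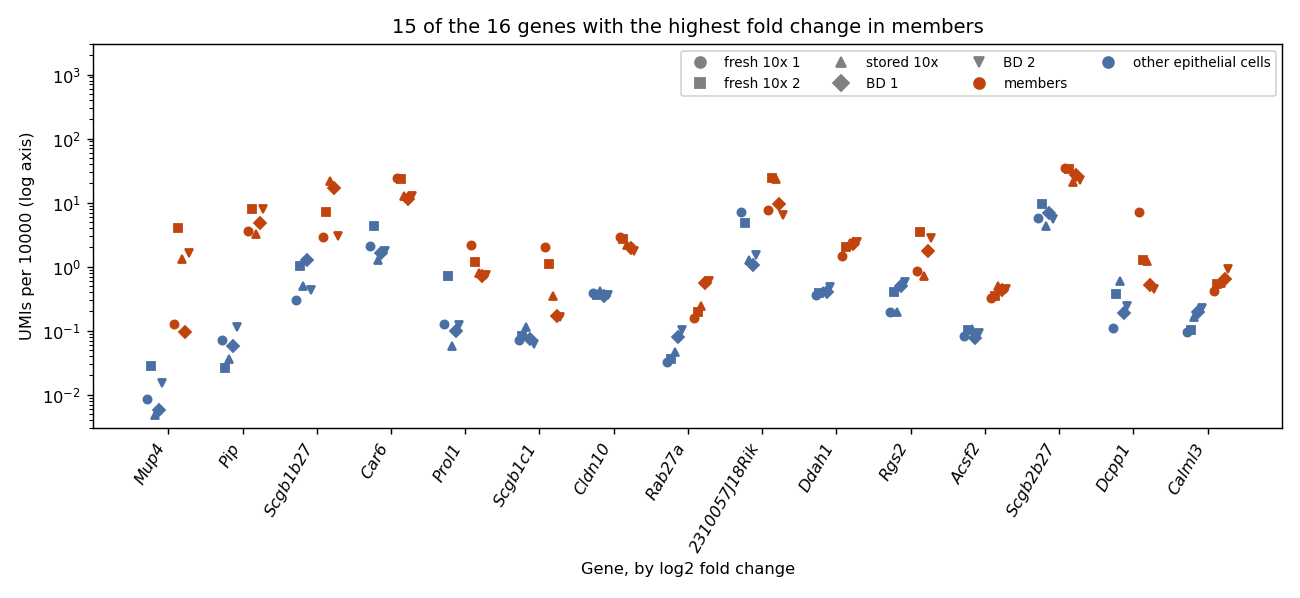
Levels of 15 of the 16 genes with the highest log2 fold change, summed over members (red) and other epithelial cells (blue), as UMIs per 10000 on a log axis, 1 symbol per library. Mup4 spread from 0.0952 to 4.06 in members, while Cldn10 and Ddah1 were even across libraries.

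The other leading genes were found in more members than Mup4, Pip, Scgb1b27 or Dcpp1. Of the secreted genes, Car6 (66.7%) and Scgb2b27 (63.5%) were found in more members than all of these but Ddah1. Ddah1, an enzyme that degrades the nitric oxide synthase inhibitor dimethylarginine, was found in 72.2% of members and was at 1.48, 2.03, 2.30, 2.25 and 2.39 UMIs per 10000, against 0.365 to 0.489 in the others (log2 fold change 2.30, SE 0.08, adjusted p = 6.34e-09). Cldn10, a claudin of tight junctions in secretory epithelia, was found in 59.3% of members and differed by 2.52 (SE 0.10, adjusted p = 1.13e-08). Its members' levels of 1.73 to 2.90 were all above the 0.351 to 0.423 of the others. Rgs2, a regulator of G protein signalling, differed by 2.20 and was found in 50.4% of members. Rab27a, a small GTPase of secretory vesicle release, differed by 2.48, and Calml3, a calmodulin-like protein, by 1.91. Acsf2, an acyl-CoA synthetase, differed by 2.15. The rule gene Chad lies inside Acsf2 on chromosome 11 (94565047 to 94569127 within 94557102 to 94602139), so their reads may be mixed. With members chosen without Chad, Acsf2 differed by 1.83. Chad itself was still higher in those members (2.60), so that fit cannot separate their reads.

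Homeobox genes of the HoxB cluster were higher beside Meis1. Of 28 listed Meis, Pbx and Hox genes, 10 were tested, 6 were higher and 1 (Pbx3, -0.91) was lower, with a median log2 fold change of 1.4. Over all genes tested, 9.46% were higher and 11.5% lower. Against cells of matched total UMIs, 7 were tested, 3 were higher and 1 was lower, with a median of 0.49. The call of Pbx3 was lost without fresh 10x 1 (adjusted p = 0.051), stored 10x (0.056), BD 1 (0.095) or BD 2 (0.082), by edgeR. Hoxb4 was at 0.0700, 0.207, 0.201, 0.0952 and 0.174 UMIs per 10000 in members and 0.0211 to 0.0302 in the others, without overlap (2.35, SE 0.24, adjusted p = 1.83e-05). Hoxb2 differed by 2.27 (SE 0.33, adjusted p = 3.31e-04) and Hoxb5 by 2.72 (SE 0.41, adjusted p = 4.67e-04). Both were higher in 4 of 5 libraries: in fresh 10x 1, Hoxb2 was at 0.0127 in members and 0.0291 in the others, and Hoxb5 had 0 UMIs in members. Hoxb3 (2.09, higher in 4 of 5 libraries) and Hoxb6 (2.85, higher in 5 of 5, and 3.53 without BD 1) also passed. Genes of the HoxB cluster overlap each other and antisense RNAs, so reads may be shared between them.

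Milk genes were lower, where 11.5% of all genes tested were lower and 9.46% higher. All 16 listed alveolar and milk genes were tested, 11 were lower and 0 higher by edgeR (0 at an unadjusted p under 0.05, 0 by DESeq2), with a median of -1.38. Csn2, beta-casein, was at 0.146, 0.279, 0.716, 0.190 and 0.148 UMIs per 10000 in members, against 7.36 to 14.0 in the others (log2 fold change -5.47, SE 0.24, adjusted p = 2.85e-08). Csn1s1, alpha-casein, was at 0.150 to 1.27 against 8.43 to 16.5 (-4.43, SE 0.27, adjusted p = 4.12e-07). Lalba, lactalbumin, fell by 2.30 and Csn3, kappa-casein, by 1.56 on the log2 scale. Csn3 stayed abundant, at 36.7 to 73.5 in members and 139 to 187 in the others. Wfdc18 (0.04) and the lipid droplet gene Plin2 (0.02) did not pass.

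Detection of the caseins differed less than their level. Csn2 UMIs were found in 17.4 to 47.0% of members and 19.3 to 53.4% of the others, lower in 5 of 5 libraries. Members held 312 Csn2 UMIs in 167 cells. The others held 200894 in 3559 cells. Glycam1, a mucin-like milk protein, differed by -5.60 (SE 0.22, adjusted p = 1.13e-08), or -6.27 without BD 1, and in the others 10 cells held 54.3% of its UMIs. It was found in 3.64% of all members and 4.87% of the others, and more often in members in 1 library. Olah, a thioesterase that makes the medium-chain fatty acids of milk, had 2 UMIs in members and 737 in the others (-4.40, or -5.07 without BD 1 and -5.16 without BD 2).

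Of the other genes with the lowest values, Klk10, a secreted serine protease, differed by -4.61 (SE 0.36, adjusted p = 2.47e-06), between -5.43 without stored 10x and -3.80 without BD 1. The uncharacterised gene 2210407C18Rik differed by -4.31 (SE 0.31, adjusted p = 1.63e-06) and was found in 8 of 550 members and in 10.4% of the others. Zfp366, a zinc finger protein, had 1 UMI in members and 305 in the others (-4.18, or -3.57 without BD 1 and, with 0 UMIs left in members, -8.18 without fresh 10x 2). Ang5, an angiogenin-family ribonuclease, Cd247, a T cell receptor chain, and Lrrtm2, a leucine-rich membrane protein, had 0 UMIs in members. Taking 3 UMIs over all members as the limit that a count of 0 allows, they were at least 5.94-fold, 5.45-fold and 4.21-fold lower. Their levels in the others were also low, at most 0.0215 UMIs per 10000. Ang5 was called in 1 of the 5 sets of members chosen without a rule gene, and was at 0.96 in members scored on cells thinned to 2000 UMIs.

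**Figure D3:**
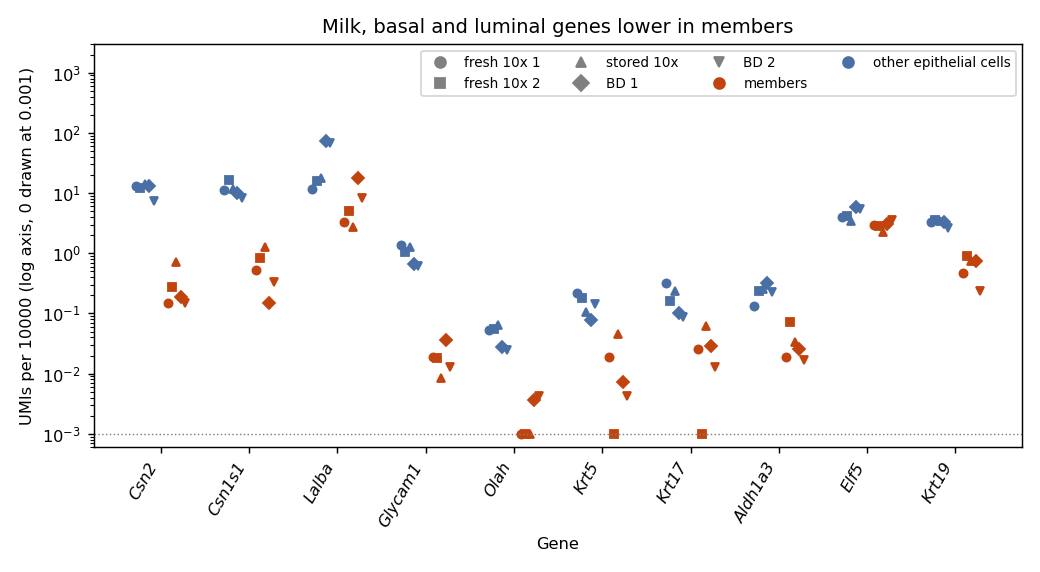
Levels of 10 milk, basal and luminal genes summed over members (red) and other epithelial cells (blue), as UMIs per 10000 on a log axis, 1 symbol per library, with 0 drawn at 0.001. Csn2 was at 0.146 to 0.716 in members and 7.36 to 14.0 in the others, while Elf5 differed far less.

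The rule gene Smr2 lies on chromosome 5 at the end of the casein cluster. Between the start of Csn1s1 and the end of Smr2 (positions 87666208 to 88109053), an interval chosen after its values were seen, the files hold 11 protein-coding genes, of which 7 were tested. Csn1s1, Csn2, Csn1s2a (-3.45) and Csn3 were lower. Smr3a, a submaxillary gland gene like Smr2, was higher (4.09, SE 1.27, adjusted p = 0.037), but 184 of its 205 UMIs in members came from fresh 10x 1 and it was higher in 3 of 5 libraries only. By edgeR its call was lost without fresh 10x 1 (2.14, adjusted p = 0.135) and without stored 10x (3.61, adjusted p = 0.161), and without BD 2 it was not tested. Csn1s2b (-0.71) and Odam (0.33) did not pass.

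Basal and luminal progenitor genes were lower as well, where 11.5% of all genes tested were lower and 9.46% higher. Of 14 basal genes 11 were tested and 10 were lower, with a median of -1.80. The basal keratin Krt5 was at 0 to 0.0461 UMIs per 10000 in members and 0.0769 to 0.218 in the others (-3.01, SE 0.40, adjusted p = 1.50e-04, and -4.23 without stored 10x). Krt14 (-2.17), Krt17 (-2.58) and Trp63 (-1.96), the basal transcription factor, were also lower. Of 14 luminal progenitor genes 8 were lower and 0 higher by edgeR (1 at an unadjusted p under 0.05, 0 by DESeq2). Aldh1a3, a retinaldehyde dehydrogenase of progenitors, was at 0.0169 to 0.0719 against 0.132 to 0.317 (-3.07, SE 0.23, adjusted p = 1.77e-06), and Elf5, the factor of alveolar fate, fell by 0.68. Among 11 tested hormone-sensing genes, 2 were higher, among them Prom1 (1.15), while Areg (-2.50), Ly6a (-1.43), Gata3 (-0.35) and Prlr (-0.33), the prolactin receptor, were lower. Esr1 (0.36) did not pass. Without 1 library the edgeR call of Areg was lost for fresh 10x 1 (-1.88, adjusted p = 0.064), stored 10x (-2.45, 0.056) and BD 2 (-2.0, 0.074). Areg reached -4.16 without BD 1.

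Genes of the Wnt pathway are given by role, beside the 9.46% higher and 11.5% lower over all genes tested. Of 12 ligands 4 were tested, and Wnt5a was lower (-0.63, adjusted p = 0.017), a call lost without stored 10x (adjusted p = 0.068) and without BD 2 (adjusted p = 0.096). Of the 6 tested secreted modulators, which leave out the rule gene Wif1, 0 were higher by edgeR (0 at an unadjusted p under 0.05, 0 by DESeq2), and Igfbp4 (-1.66) and Sfrp1 (-0.95) were lower. Of 15 tested receptors, Fzd5 (0.56) and Fzd7 (0.38) were higher, and both calls were lost without stored 10x (adjusted p = 0.106 and 0.053) and without BD 1 (0.206 and 0.059), that of Fzd5 also without BD 2 (0.107). Of 12 tested targets and feedback genes, Nkd2 (1.31), Bambi (0.39) and Cd44 (0.23) were higher and Tcf7l2 (-1.11) was lower. The call of Nkd2 was lost without stored 10x (adjusted p = 0.056), that of Bambi without each library but fresh 10x 2, and that of Cd44 without each but fresh 10x 1, by edgeR throughout. Axin2, the usual feedback target, was below the filter on low counts.

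Genes of arginine metabolism beside Arg1 changed in both directions. Of 27 listed genes 22 were tested, 7 were higher and 5 lower by edgeR (6 and 3 by DESeq2), with a median of 0.04. Over all genes tested, 9.46% were higher and 11.5% lower by edgeR. Arg2, the mitochondrial arginase, was at 0.242, 0.144, 0.188, 0.136 and 0.178 UMIs per 10000 in members and 0.0475 to 0.0738 in the others, without overlap (1.5, SE 0.19, adjusted p = 1.15e-04). Pycr1 (0.94), Aldh18a1 (0.53) and Oat (0.49), which link ornithine and proline, were higher, as were Azin1 (0.58), Sms (0.48) and Gatm (0.37). The polyamine oxidase Smox fell by 0.91, the arginine transporter Slc7a2 by 1.36 and the creatine enzyme Gamt by 0.74 on the log2 scale. By edgeR the call of Slc7a2 was lost without stored 10x (adjusted p = 0.126), BD 1 (0.189) or BD 2 (0.132), that of Gamt without stored 10x (0.079) or BD 2 (0.052), and that of Gatm without fresh 10x 1 (0.094), stored 10x (0.149), BD 1 (0.222) or BD 2 (0.074). Odc1 (0.22), which makes putrescine from ornithine, did not pass.

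Immediate early and acute phase genes were mostly lower, while the other stress and defence lists were split or had few calls, where 11.5% of all genes tested were lower and 9.46% higher. Of 10 immediate early genes 9 were lower, from Fosb (-1.33) to Jun (-0.29), and 9 of 13 tested acute phase genes were lower, among them Saa3 (-2.29) and Chil1 (-1.51). The call of S100a9 (-2.17) was lost by edgeR without fresh 10x 1 (-0.95, adjusted p = 0.214) and without BD 2 (adjusted p = 0.070). Saa3 was at -3.34 without fresh 10x 1. Wfdc2, a secreted protease inhibitor, was higher (1.73), a call lost by edgeR without stored 10x (1.34, adjusted p = 0.055). Of 15 interferon genes 4 were lower (Isg15, Cxcl10, Ifi44 and Ifi27) and 0 higher by edgeR (0 at an unadjusted p under 0.05, 0 by DESeq2). Without cells holding 5 or more UMIs of other classes 0 of 14 were lower, and against cells of matched total UMIs 1 of 11 was. The edgeR call of Ifi27 was lost without each library but fresh 10x 2 (adjusted p = 0.0987 to 0.170), and that of Ifi44 without stored 10x (0.0685) and BD 2 (0.107). Of 19 tested genes of the unfolded protein and amino acid stress responses 5 were higher, led by the serine enzyme Phgdh (1.05), and 8 lower, among them the chaperone Hspa5 (-0.60). Hypoxia and glycolysis genes were split, with 4 of 24 higher (Egln3, Car9, Car12 and Eno1) and 5 lower. In the Notch list Jag1, a ligand, was higher (1.85) while 5 of 14 were lower. Of 20 cell cycle genes 0 passed in either direction by edgeR, 0 had an unadjusted p under 0.05 and 0 passed by DESeq2. Their median was 0.01.

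**Figure D4:**
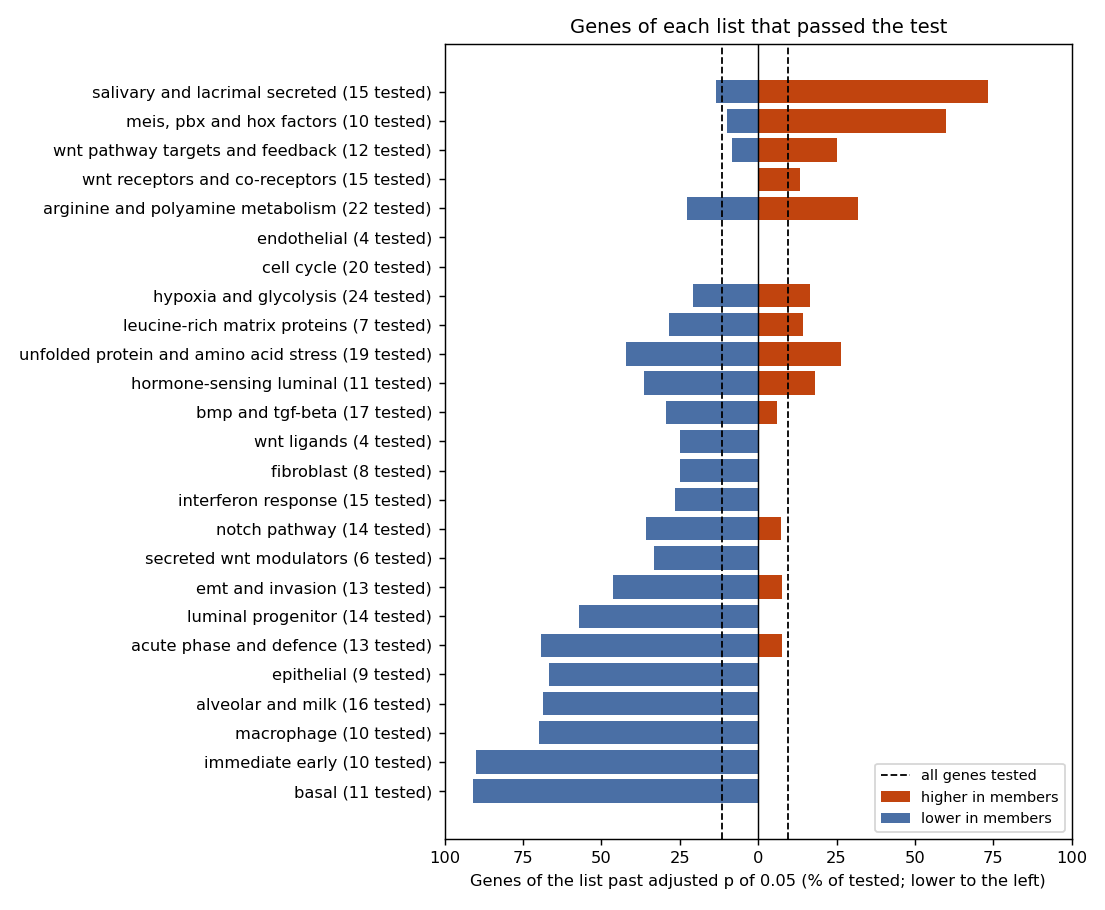
Share of the tested genes of each list that were higher (red, right) or lower (blue, left) in members, in percent. Dashed lines mark the same shares over all genes tested, 9.46% higher and 11.5% lower. Salivary and lacrimal genes lead on the right, basal genes on the left.

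Leaving Arg1 out of the score changed which secreted genes stood out. With members chosen on Wif1, Smr2, Meis1 and Chad, Scgb1b27 was at -1.07 (adjusted p = 0.218), 2310057J18Rik at 0.10 (adjusted p = 0.865), Pip at 2.01 (adjusted p = 0.124) and Scgb2b27 at 0.87 (adjusted p = 0.055), all past the threshold in the other 4 fits. Dcpp1 kept its call in 4 of the 5 fits and missed it without Meis1 (adjusted p = 0.055). The other 11 of the 16 leading genes were higher in 5 of 5 fits. Mup4 was then at 5.61, Car6 at 2.14, Hoxb4 at 2.98, Hoxb2 at 2.72, Csn2 at -5.06 and Csn3 at -2.19. The difference between fits was not tested. Counts over all genes were 752 higher without Arg1, and 1070 to 1212 without another gene. These readings of the other genes were added after the data were seen.

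**Figure D5:**
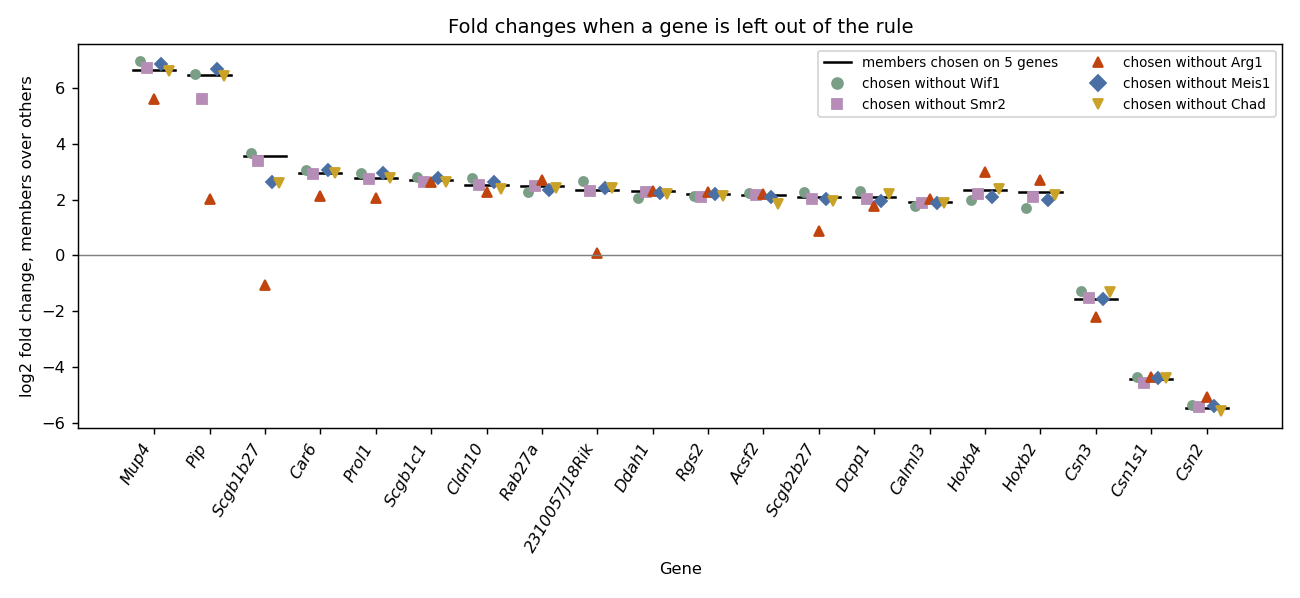
Log2 fold changes of 15 of the 16 leading genes, 2 HoxB genes and 3 caseins between members and other epithelial cells, with members chosen on all 5 genes (black line) or with 1 gene left out (symbols). Scgb1b27 went from 3.56 to -1.07 and Pip from 6.46 to 2.01 without Arg1, while the values of Ddah1 and Rgs2 moved little.

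Members with different rule genes also differed among themselves, given here as counts without a test. Of the 487 members with Arg1, 73 had Pip (15%), and 0 of the 63 members without it did, which allows a share of up to 4.76%. The members without Arg1 were shallower, with median totals of 3674 to 9681 UMIs against 12946 to 18120. Hoxb4 was found in 27.9% of the 276 members with Wif1 and 8.03% of the 274 without, more often with Wif1 in 5 of 5 libraries. Scgb1b27 went the other way, with 6.88% of the members with Wif1 and 23.0% of those without, in 5 of 5 libraries, although members with Wif1 were the deeper cells (median totals of 13220 to 22040 against 7285 to 14113). Mup4 went with Smr2: 15% of the 120 members with Smr2 had it and 3.72% of the 430 without, in 5 of 5 libraries. Their median totals were 11415 to 17954 and 11747 to 17922 UMIs. The parts of depth and of the rule in these shares were not tested.

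The members were set against 2 other sets of epithelial cells chosen by the same kind of rule, those that overlap the members most among the 5 sets compared. Other epithelial sets were not compared. Cells high in Scgb and Pip genes held a median of 16.5% of the members of a library, and cells high in Ly6d and Tspan8 held 3.36%, where 5% would belong by size. Cells in both sets were left out of each test, as were the genes that define the other set. Against the Scgb and Pip cells this left 48, 60, 132, 106 and 115 members (fresh 10x 1, fresh 10x 2, stored 10x, BD 1, BD 2). That comparison therefore does not cover the members that were also high in Scgb and Pip genes. Against the Scgb and Pip cells, 744 of 9532 genes were higher in the members (7.81%) and 836 lower (8.77%). Of the 16 leading genes 13 could be tested, 6 were higher and 2 lower. Among the higher genes were Rab27a (2.22), Rgs2 (1.89), Acsf2 (1.68), Ddah1 (1.46) and Calml3 (0.76). Hoxb4 was also higher (2.61, adjusted p = 1.56e-04). Car6 (-1.18, adjusted p = 4.77e-03) and 2310057J18Rik (-2.86) were lower, and Cldn10 (0.16) and Csn2 (-0.24) did not pass. The counts without stored 10x were 460 and 539, without BD 1 387 and 481, and without BD 2 440 and 521. Against the Ly6d and Tspan8 cells, 14 of 15 leading genes tested were higher and 0 lower by edgeR, where 16.5% of 9152 genes were higher and 15.5% lower.

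Platform and storage were compared by the difference of the member effect. The labels of BD 2 conflict on storage, so for that library platform and storage cannot be told apart. Between BD Rhapsody and fresh 10x, 3 of 12597 genes differed (0.0238%), with 861 at an unadjusted p under 0.05 and 14 called by DESeq2. Cpm, a membrane carboxypeptidase that removes arginine and lysine, was at 0.601 and 0.644 UMIs per 10000 in the members of BD 1 and BD 2 against 0.133 and 0.147 in the others, and at 0.102 and 0.0989 in the members of the fresh 10x libraries against 0.138 and 0.358. The log2 difference was 3.29. For Scgb1c1 it was -3.05 and for the keratinocyte protein Dmkn -2.28, so both members' effects were lower on BD Rhapsody. The count was 96 without fresh 10x 1, 97 without fresh 10x 2, 33 without BD 1, 40 without BD 2 and 3 without stored 10x. Between stored and fresh 10x 0 genes passed by edgeR (0.0% of 12597), with 634 at an unadjusted p under 0.05 and 6 called by DESeq2, and 69 passed without fresh 10x 1, 55 without fresh 10x 2, 23 without BD 1 and 31 without BD 2. Stored 10x is 1 library, so the spread comes from the fresh 10x and BD libraries, stored 10x is assumed to vary like them, and storage and that library cannot be told apart.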

How the data were processed

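The deposited count matrices (UMIs per gene and cell, raw) of 5 libraries were used. Per the submitters' processing notes the build was mm10 and Cell Ranger 3.0.1 was used, in a role not given in the sources used here. No further count normalization by the authors is recorded in the labels. Counts were summed per library over members and over other epithelial cells and tested with edgeR 4.0.16 (R 4.3.3) by quasi-likelihood with filterByExpr, TMM, the library as a block and Benjamini-Hochberg adjustment over all genes except the rule genes, at 0.05. DESeq2 1.42.0 was an alternative. Both profiles come from 1 library, and deviations of the same library correlated at 0.516 to 0.752. The fit was tested on simulated data. Neighbours used scanpy 1.11.5.

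The members and gene lists were chosen with earlier results of these data known. Named genes were the 16 highest and 10 lowest called genes with the same sign in 5 of 5 libraries, up to 4 per list by lowest p, and the rule genes. Other genes of the lists were named after their values were seen. Doublets were not removed, and scrublet scores served as an alternative. Intervals for counts of 0 cover counting error only, at 3 counts. Promoter sequences are from RefSeq (GRCm38.p6). Some genes that passed the tests are counted but not reported here by name.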

Additional observations from a re-analysis of the deposited data

Results flagged for a closer look

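The effect of membership on Cpm differed between platforms, with a log2 difference of 3.29 (BD Rhapsody minus fresh 10x) by a test of the difference itself. The effect on Scgb1c1 differed by -3.05 between the same platforms by the same test. The effect on Dmkn differed by -2.28 by that test. For Scgb1c1, 1 cell held 35.9% (fresh 10x 1) and 57.4% (fresh 10x 2) of the members' UMIs.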

How the results depend on the processing

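The 1192 higher and 1449 lower genes became 201 and 286 with no replicate block, 748 and 748 against cells of matched total UMIs, and 615 and 791 with scores on cells thinned to 2000 UMIs. With members chosen without Arg1, 752 genes were higher. Leaving out 1 library gave 779 to 1222 higher and 980 to 1497 lower genes, the lowest count of higher genes without stored 10x. Against the Scgb and Pip cells DESeq2 called 335 higher and 433 lower genes, and leaving out 1 library gave from 387 and 481 upward to 741 and 860. Against the Ly6d and Tspan8 cells DESeq2 called 843 and 886. The platform difference had 3 genes, 14 with DESeq2, 169 with no filter and 3 to 97 without 1 library. The storage difference had 0 genes by edgeR (634 at an unadjusted p under 0.05), 6 with DESeq2, 99 with no filter and 23 to 69 without 1 library. The mean share of neighbours, 29.4%, was 23.1% with a gate of 30 UMIs per 10000 and 22.2% with thinned scores. Single genes reversed as follows: Prlr at 0.013 with the 90th percentile and 0.069 with thinned scores, Lum at 0.21 and Cd74 at 0.086 without cells holding 5 or more UMIs of other classes, Ang5 at 0.96, Lyz2 at 1.03 and Cd74 at 0.77 with thinned scores, and Scgb1b27 at -1.07 without Arg1. The cause was not tested. Of 1936 values of the named genes under the alternatives, 1729 kept direction and side of the threshold, 199 lost the call and 8 reversed. Depth limits the 10 lowest genes other than Csn2 and Csn1s1, which have 0 to 20 UMIs in members.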
